A study of Mus musculus with 9 samples.

Results

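The genes described here make up the MHC class II antigen presentation pathway: its transcriptional master regulator Ciita, the invariant chain gene Cd74, the antigen-binding chain genes H2-Aa, H2-Ab1 and H2-Eb1, and the peptide-exchange genes of the H2-DM and H2-O heterodimers. They were taken by gene symbol from a list of 10, and 8 of the 10 were among the 2889 genes of the sample table. H2-DMa and H2-Oa, the alpha chain partners of H2-DM and H2-O, were not in that table and are not analysed here. The samples were splenic CD3+ T cells of wild-type C57BL/6 mice, obtained by negative selection, in which other cell types are removed. Cells of 3 mice were each held for 4 h in medium conditioned by adipocytes, in medium conditioned by stromal cells, or in unconditioned medium, which gives 9 RNA-seq samples, 3 per medium. The labels give no age or sex and do not describe the adipocytes or the stromal cells.

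Class II molecules are heterodimers of an alpha and a beta chain that show peptides from endocytosed proteins to CD4 T cells. The invariant chain, encoded by Cd74, chaperones new class II dimers and blocks their groove; H2-DM later exchanges its remnant for peptide, and H2-O restrains H2-DM. CIITA switches the genes on together, through a protein platform that sits on an upstream X box and Y box. B cells, dendritic cells and macrophages are the main class II cells of the spleen, whereas mouse T cells make little of it. C57BL/6 mice lack a working alpha chain gene for the E molecule, so that in this strain H2-Eb1 is transcribed without an E dimer at the surface.

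The shared promoter module is shown first, because the genes divide below into a group that moved together and one gene that did not, and both carry it. RefSeq promoters (build GRCm38.p6, from 250 bases before to 50 after the gene start) were listed for 5 of the 8 genes. Each stretch below spans 100 bases on the gene's own strand, and the capitals mark the motif letters. TGATTGG is the Y box, read on the strand opposite to its CCAAT core. Parts of the X box were sought in a short form, which is the run of letters GCAAC. They were also sought in a longer form, in which AAC is followed, after a gap of any 4 bases, by the letters GATG. The last 3 letters of the short form are the first 3 of the longer one where both occur.
H2-Ob, chr17:34238786-34238885, plus strand: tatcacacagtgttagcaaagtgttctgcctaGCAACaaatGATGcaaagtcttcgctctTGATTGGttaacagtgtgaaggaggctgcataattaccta
H2-Aa, chr17:34287834-34287933, minus strand: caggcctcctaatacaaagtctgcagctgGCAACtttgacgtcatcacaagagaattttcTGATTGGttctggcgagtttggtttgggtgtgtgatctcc
H2-Eb1, chr17:34305746-34305845, plus strand: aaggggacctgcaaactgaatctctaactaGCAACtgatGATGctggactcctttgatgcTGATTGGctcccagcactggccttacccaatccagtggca
H2-DMb1, chr17:34153068-34153167, plus strand: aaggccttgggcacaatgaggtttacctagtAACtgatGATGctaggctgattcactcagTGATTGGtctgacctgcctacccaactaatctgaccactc
H2-DMb2, chr17:34145097-34145196, plus strand: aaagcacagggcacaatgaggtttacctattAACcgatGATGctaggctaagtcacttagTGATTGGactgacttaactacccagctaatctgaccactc

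All 5 promoters held TGATTGG, which 7.82% of the 32851 listed promoters of this length held on either strand. The longer X box motif stood in 4 of the 5, against 2.04% of all promoters, and GCAAC in 3, against 35.2%. The longer X box motif followed by TGATTGG, with 0 to 40 bases between, was found in 6 promoters of the whole set (0.0183%), and 4 of these 6 belong to H2-Ob, H2-Eb1, H2-DMb1 and H2-DMb2. In those 4 the gap was 15 to 18 bases. H2-Aa lacked the longer X box letters and held GCAAC 26 bases before its Y box. The letters were chosen after these promoters had been read, so the shares describe the module and test nothing.

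Reads on the 2889 listed genes came to 6522742 to 13758643 per sample. The sample table holds only genes that the authors listed as changed in at least 1 conditioned medium, so its genes were selected on these same samples. Values are normalized counts, that is reads divided by 1 size factor per sample. In the limma fit over the 2868 genes with a mean of at least 1, 63.4% were lower and 33.8% higher in adipocyte against unconditioned medium at an adjusted p under 0.05, and the median gene stood at a log2 fold change of -1.03. The medians were -0.17 for stromal against unconditioned and -0.60 for adipocyte against stromal medium. Each gene is therefore given below with its own change and, where it bears on the reading, its distance from that median. Rescaling the samples by the median of ratios over the listed genes moved the median log2 fold change of all genes up by 0.93, 0.36 and 0.57 in these 3 comparisons. In the comparisons with adipocyte medium this brought the median near 0 (-0.11 and -0.03), as a median-based scaling of genes that are mostly lower does by construction, whereas for stromal against unconditioned medium the median moved past 0, to 0.19.

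On the authors' scale all 8 class II genes were lower in adipocyte than in unconditioned medium, with log2 fold changes of -2.61 to -0.59 (median -1.45), whereas after rescaling 4 were lower (36.5% of all genes were) and 1, H2-Ob, was higher (37.5%). A share of 97.2% of all tested genes passed the same threshold in this comparison, so 8 of 8 passing is close to the background. The adipocyte and unconditioned samples did not overlap for any of the 8, nor for 97.0% of all genes (63.4% lower and 33.6% higher). The authors' deposited table for adipocyte medium, whose Wald statistics match tests against a 1.5-fold change, lists 7 of the 8, all but H2-Ob. It lists 91.4% of the sample table. In stromal against unconditioned medium 1 gene of the 8, H2-Ob, was past the threshold and lower, while 57.7% of all tested genes were past it, 36.6% lower and 21.1% higher. Its samples alone did not overlap there, against 69.4% of all genes (44.2% lower and 25.1% higher). After rescaling H2-Ob was still lower (19.6% of all genes were) and 2 genes, Cd74 and H2-DMb1, were higher (39.3%). In adipocyte against stromal medium 7 were lower and H2-Ob was higher, a split that rescaling left as it was, against 91.0% of all genes past the threshold, 57.2% lower and 33.8% higher (38.0% and 40.8% after rescaling). No class II gene overlapped between these media, against 89.6% of all genes without overlap, 56.2% lower and 33.4% higher.

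**Figure D1:**
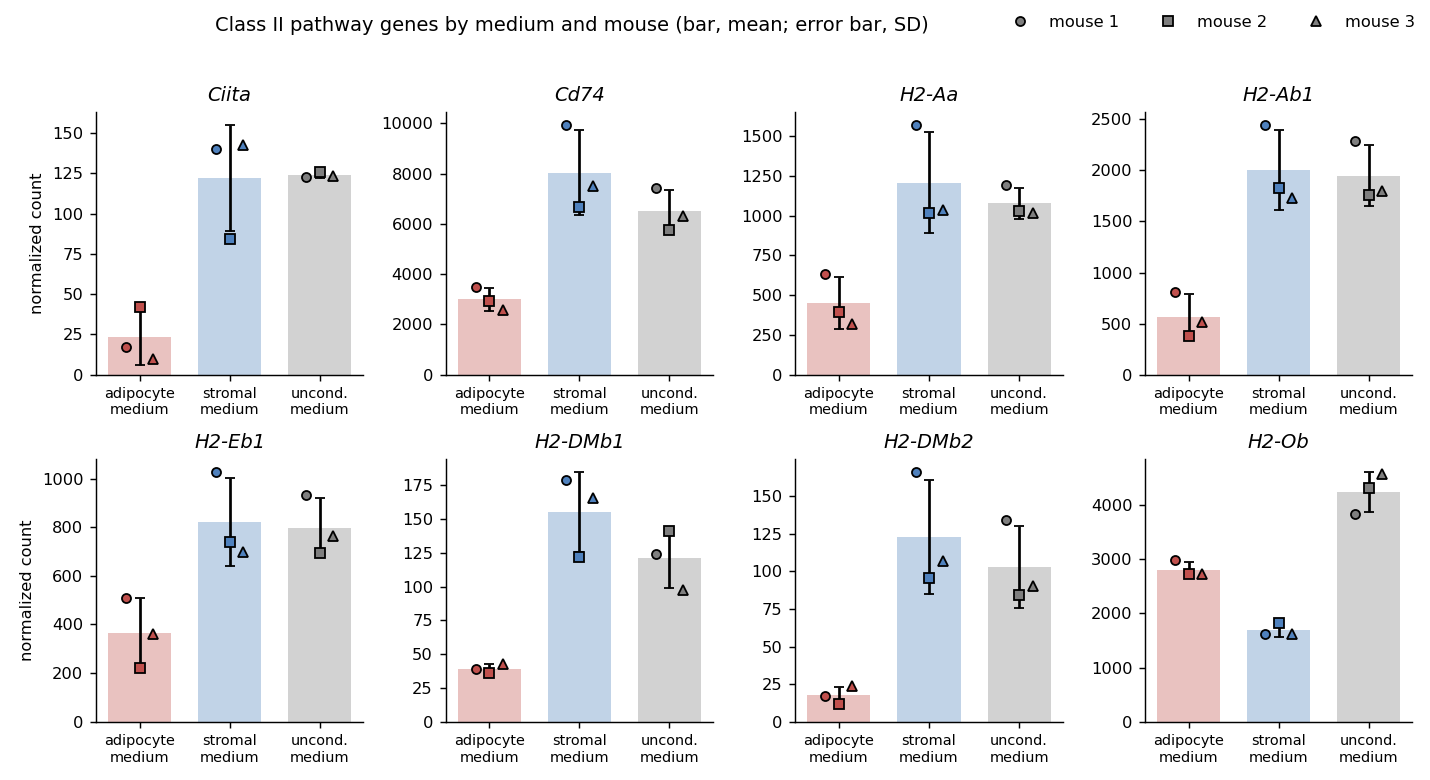
Normalized counts (linear axis from 0) of the 8 genes in adipocyte, stromal and unconditioned medium; points are single samples with a marker per mouse, bars are means of 3 samples and error bars are SD. For 7 genes the adipocyte samples lie below all others, whereas H2-Ob is lowest in stromal medium; on the authors' scale H2-Ob is also lower in adipocyte than in unconditioned medium, and rescaling by the median of ratios turns that difference round.

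Ciita (ENSMUSG00000022504), the transactivator without which class II genes are hardly transcribed, was among the lowest of these genes in all media. It had 17.3, 42.3 and 9.77 normalized counts in adipocyte medium (mice 1, 2 and 3), 140, 84.4 and 142 in stromal medium and 123, 126 and 123 in unconditioned medium. The adipocyte samples did not overlap with either other group, and mouse 2 stood highest among them. Behind the adipocyte values were 12, 47 and 10 reads, so their precision is limited by counting. In adipocyte against unconditioned medium limma put its log2 fold change at -2.61 (SE 0.42, adjusted p = 5.75e-05), lower in 3 of 3 mice and 1.58 below the median gene. Between stromal and unconditioned medium it was -0.06 (SE 0.42, adjusted p = 0.915), with a 95% interval of -0.98 to 0.86 that leaves room for a change of nearly 2-fold either way. A share of 3.45% of Ciita's annotated exon bases lies opposite an exon of Dexi, and the libraries do not keep strand.

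Cd74 (ENSMUSG00000024610), the invariant chain gene, was the most abundant of the 8. It had 3482, 2929 and 2568 normalized counts in adipocyte medium, 9950, 6680 and 7507 in stromal medium and 7446, 5741 and 6310 in unconditioned medium. Adipocyte samples were below all others, and stromal and unconditioned samples overlapped. The log2 fold change in adipocyte against unconditioned medium was -1.12 (SE 0.15, limma adjusted p = 1.16e-05), 0.09 below the median gene, and 44.2% of all tested genes fell further. After rescaling it was -0.20 (adjusted p = 0.276), whereas edgeR with TMM, another scaling, gave -0.67 (adjusted p = 9.80e-04). The call therefore depends on which scaling is used. In stromal medium Cd74 was higher in 3 of 3 mice by 0.42, 0.22 and 0.25 on the log2 scale. Its log2 fold change there was 0.30 (SE 0.15, adjusted p = 0.114), and a fit blocked on the mouse gave an adjusted p of 0.0160. Without stromal replicate 2 it was 0.42 (adjusted p = 0.0459), and rescaled it was 0.65 (adjusted p = 0.00378).

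H2-Aa (ENSMUSG00000036594) and H2-Ab1 (ENSMUSG00000073421) encode the alpha and beta chains of the A molecule, the class II molecule that C57BL/6 cells display. H2-Aa had 636, 395 and 318 normalized counts in adipocyte medium, 1571, 1016 and 1036 in stromal medium and 1191, 1027 and 1013 in unconditioned medium. H2-Ab1 had 814, 378 and 511 in adipocyte medium, 2447, 1832 and 1729 in stromal medium and 2291, 1758 and 1794 in unconditioned medium. For both genes the adipocyte samples were below all others and the other media overlapped. The log2 fold change in adipocyte against unconditioned medium was -1.32 for H2-Aa (SE 0.23, limma adjusted p = 1.07e-04) and -1.84 for H2-Ab1 (SE 0.23, adjusted p = 5.84e-06). H2-Aa was 0.28 below the median gene and lost its call on rescaling (-0.39, adjusted p = 0.154), whereas H2-Ab1, 0.80 below the median gene, kept it (-0.91, adjusted p = 0.00576). Between stromal and unconditioned medium the 95% interval of the log2 fold change was -0.36 to 0.64 for H2-Aa and -0.47 to 0.54 for H2-Ab1.

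H2-Eb1 (ENSMUSG00000060586), for the beta chain of the E molecule, had 508, 221 and 362 normalized counts in adipocyte medium. It had 1027, 739 and 697 in stromal medium and 931, 695 and 764 in unconditioned medium. The adipocyte samples were again below all others, with a spread among them of more than 2-fold, mouse 2 being the lowest. The log2 fold change in adipocyte against unconditioned medium was -1.198 (SE 0.25, limma adjusted p = 5.46e-04) and -0.27 after rescaling (adjusted p = 0.371). Between stromal and unconditioned medium it was 0.03 (SE 0.25, adjusted p = 0.923).

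H2-DMb1 (ENSMUSG00000079547) and H2-DMb2 (ENSMUSG00000037548) encode alternative beta chains of H2-DM, the exchanger that frees the class II groove. The H2-DMb1 values were 38.8, 36.0 and 43.0 normalized counts in adipocyte medium, 179, 122 and 165 in stromal medium and 124, 141 and 97.5 in unconditioned medium. The H2-DMb2 values were 17.3, 11.7 and 23.4 in adipocyte medium, 166, 95.6 and 107 in stromal medium and 134, 84.3 and 90.4 in unconditioned medium. Both sets of adipocyte samples lay below all others, on 27 to 44 reads for H2-DMb1 and 12 to 24 for H2-DMb2. The log2 fold changes in adipocyte against unconditioned medium were -1.58 for H2-DMb1 (SE 0.23, limma adjusted p = 2.60e-05) and -2.51 for H2-DMb2 (SE 0.33, adjusted p = 8.07e-06). Both stayed past the threshold after rescaling, at -0.67 (adjusted p = 0.0177) and -1.62 (adjusted p = 8.68e-04). The genes are paralogs, and 26.6% of the 50-base words of the longest H2-DMb1 transcript also occur in that of H2-DMb2. Reads from such stretches cannot be assigned to 1 of them, so the values of both are uncertain.

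The DM beta genes also differed from each other. The log2 ratio of H2-DMb2 to H2-DMb1 within a sample, which does not depend on the scaling of that sample, was -1.17, -1.62 and -0.87 in adipocyte medium, -0.10, -0.35 and -0.63 in stromal medium and 0.11, -0.74 and -0.11 in unconditioned medium. The 3 adipocyte values lay below all 6 others. Since 3 samples set against 3 allow no exact permutation p below 0.1, no such test is given for single ratios.

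H2-Ob (ENSMUSG00000041538), for the beta chain of H2-O, the inhibitor of H2-DM, departed from the other 7. It had 2978, 2721 and 2720 normalized counts in adipocyte medium, 1612, 1828 and 1628 in stromal medium and 3839, 4308 and 4578 in unconditioned medium. No pair of media overlapped, and the order was stromal, adipocyte, unconditioned from low to high. In stromal against unconditioned medium the log2 fold change was -1.33 (SE 0.09, limma adjusted p = 6.61e-07), lower in 3 of 3 mice (log2 ratios within a mouse of -1.24 to -1.49), and 5.16% of all tested genes had a lower value. Rescaling left it at -0.97 (adjusted p = 9.93e-06). The authors' deposited table for stromal medium lists 17.1% of the sample table. Of the 8 class II genes it holds H2-Ob alone, with a log2 fold change of -1.33 (Wald test, adjusted p = 9.31e-12). The authors' Wald statistics match a test against a 1.5-fold change, whereas limma tested against no change. Of the authors' lists used here, only the stromal one holds H2-Ob and only the adipocyte one holds the other 7. The split between them in the comparisons with unconditioned medium was therefore in part selected for, and the listing is not independent evidence of it. In adipocyte against unconditioned medium the limma fit gave H2-Ob -0.59 (SE 0.09, adjusted p = 3.03e-05), which is 0.44 above the median gene. Rescaling turned it to 0.33 (adjusted p = 0.00799). Adipocyte against stromal medium gave 0.73 (SE 0.09, adjusted p = 7.21e-06), higher in 3 of 3 mice.

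**Figure D2:**
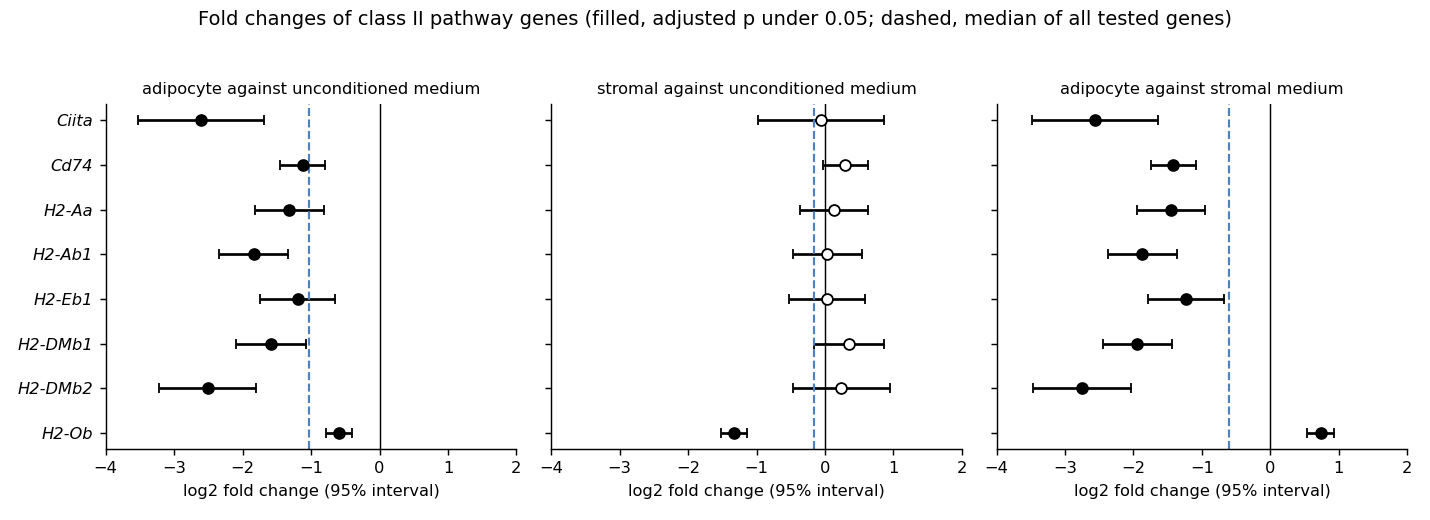
Log2 fold changes of the 8 genes with 95% intervals in the 3 comparisons; filled points have a limma adjusted p under 0.05 and the dashed line is the median of all 2868 tested genes. H2-Ob stands at -1.33 in stromal against unconditioned medium, where the intervals of the other 7 include 0; its value of -0.59 in adipocyte against unconditioned medium turns to 0.33 on rescaling, and the calls of Cd74, H2-Aa and H2-Eb1 are lost there.

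Ratios within a sample show the same separation free of any size factor. The log2 ratio of H2-Ob to Cd74 was -0.23, -0.11 and 0.08 in adipocyte medium, -2.63, -1.87 and -2.20 in stromal medium and -0.96, -0.41 and -0.46 in unconditioned medium. The 3 media did not overlap, and the mean difference was 0.53 between adipocyte and unconditioned medium and -1.62 between stromal and unconditioned medium. Set against the summed T cell markers of the same sample (Cd3e, Cd3g, Cd8a, Cd8b1 and Bcl11b), H2-Ob had a mean log2 ratio of -3.95 ± 0.10 in adipocyte medium, -5.74 ± 0.07 in stromal medium and -4.70 ± 0.05 in unconditioned medium (SD, n = 3 each). Relative to these T cell markers H2-Ob was thus higher in adipocyte and lower in stromal than in unconditioned medium, without overlap. Only these 5 of the 20 T cell markers listed were in the sample table, which holds genes listed as changed. All 5 fell in adipocyte against unconditioned medium, so the higher ratio there depends on which markers were available. The log2 ratio of H2-Ab1 to H2-Aa, the paired chains, was 0.36, -0.06 and 0.68 in adipocyte medium, 0.64, 0.85 and 0.74 in stromal medium and 0.94, 0.77 and 0.82 in unconditioned medium. Adipocyte and unconditioned samples did not overlap in that ratio, and stromal samples overlapped with both.

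**Figure D3:**
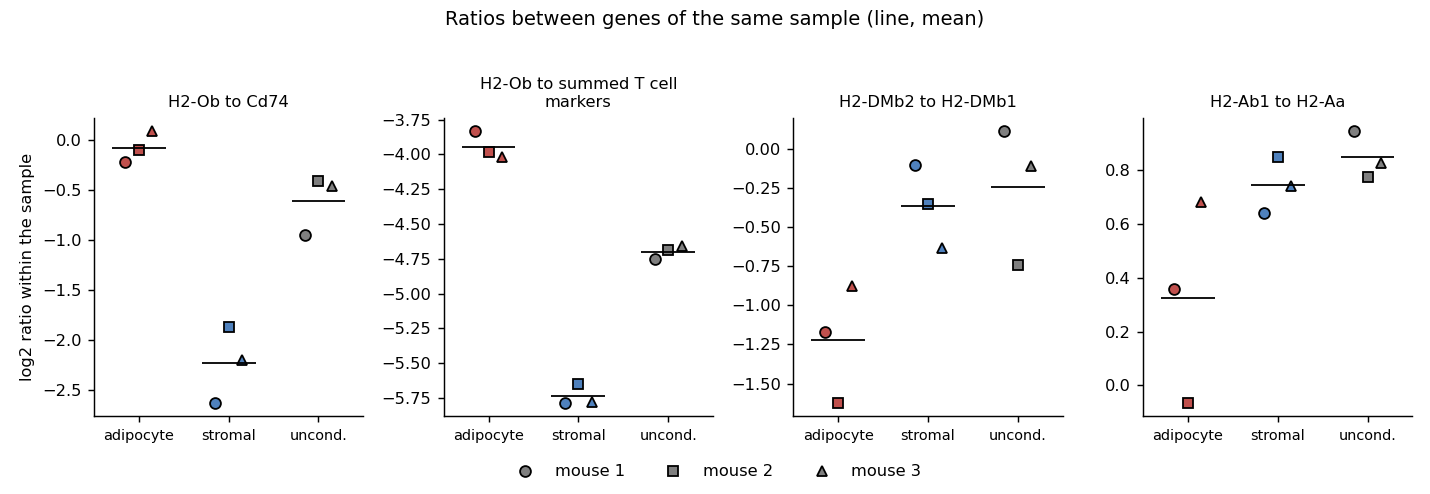
Log2 ratios between genes of the same sample in adipocyte, stromal and unconditioned medium, with a marker per mouse and a line at the mean of 3 samples. H2-Ob relative to Cd74 averages -0.08 in adipocyte, -2.23 in stromal and -0.61 in unconditioned medium, and the H2-DMb2 to H2-DMb1 ratio is lowest in adipocyte medium.

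Among all tested genes the 8 spread widely in adipocyte against unconditioned medium. Ciita and H2-DMb2 were near the low end, with 5.13% and 5.58% of genes below them. H2-Ab1 and H2-DMb1 had 14.7% and 21.2% of genes below them, H2-Aa 32.5%, H2-Eb1 39.2%, Cd74 44.2% and H2-Ob 62.0%. In stromal against unconditioned medium the 7 genes other than H2-Ob had 56.1% to 78.9% of genes below them. In adipocyte against stromal medium, a comparison with no table among those used here, those 7 had 2.93% to 23.7% of genes below them. Their log2 fold changes there were -2.75 to -1.23, against a median gene of -0.60, and all 7 were still lower after rescaling.

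**Figure D4:**
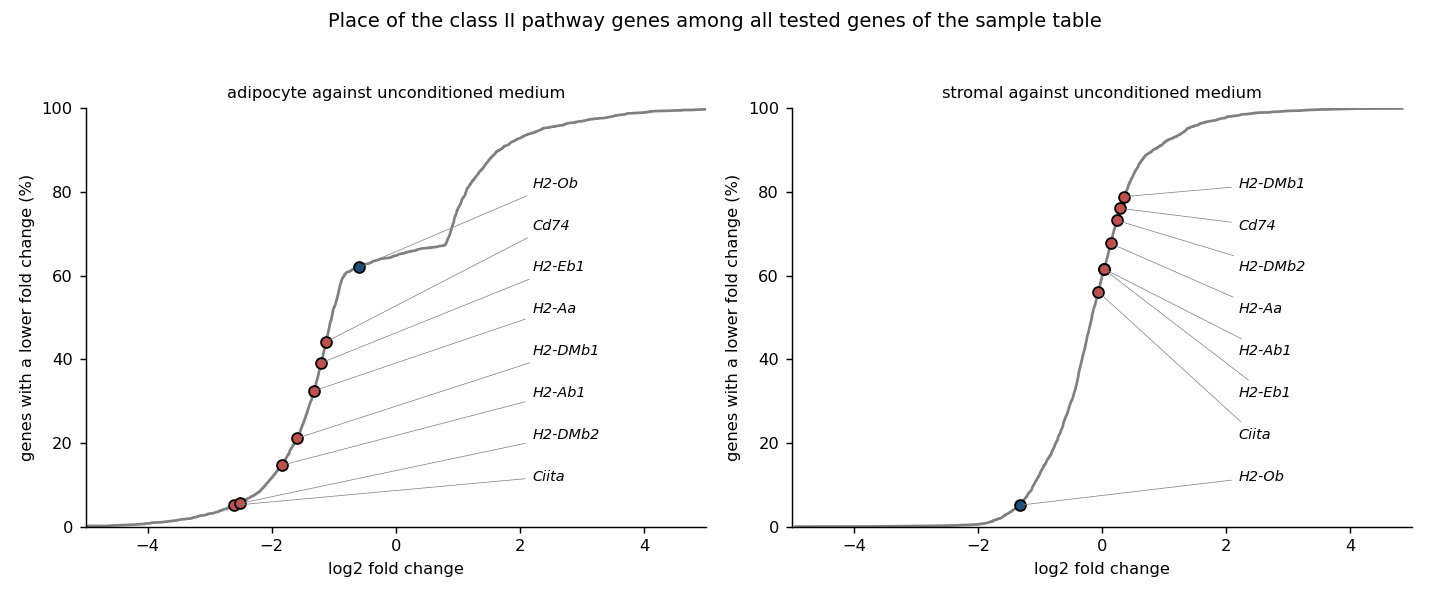
Share of all tested genes with a lower log2 fold change (vertical axis, percent) against the log2 fold change, with the 8 genes marked on the curve for adipocyte and for stromal against unconditioned medium. Ciita and H2-DMb2 sit near 5% in adipocyte medium and H2-Ob near 5% in stromal medium; the flat stretch of the adipocyte curve reflects the selection of genes, and H2-Ob, which lies on it at -0.59, turns to 0.33 when the samples are rescaled.

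Levels can be set against each other only per length. Per kilobase of annotated exon in GENCODE M21, Cd74 had a mean of 1782 normalized counts in adipocyte, 4792 in stromal and 3871 in unconditioned medium. H2-Ob had 522, 314 and 788 in the same order of media, and H2-Ab1 had 221, 780 and 758. In unconditioned medium the ranges of H2-Ob (714 to 851) and H2-Ab1 (684 to 892) per kilobase overlapped, whereas in adipocyte medium H2-Ob (506 to 554) lay above H2-Ab1 (147 to 317). H2-Eb1 had 187 per kilobase in adipocyte, 422 in stromal and 410 in unconditioned medium, and H2-Aa had 118, 318 and 284. The DM beta genes and Ciita were lowest, at 23.4, 9.999 and 2.42 in adipocyte, 92.4, 70.3 and 12.8 in stromal and 71.9, 59.0 and 13.0 in unconditioned medium for H2-DMb1, H2-DMb2 and Ciita. The exon lengths join all annotated isoforms, so a gene with long rare exons is understated.

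The summed level of the 8 genes was 7260 ± 1070 normalized counts in adipocyte, 14167 ± 2552 in stromal and 14910 ± 1107 in unconditioned medium (SD, n = 3 each). Without H2-Ob it was 4454 ± 921 in adipocyte, 12477 ± 2633 in stromal and 10668 ± 1396 in unconditioned medium. Within each mouse this sum of 7 was lower in adipocyte than in unconditioned medium, with log2 ratios of -1.15, -1.25 and -1.41. It was higher in stromal than in unconditioned medium in every mouse, by 0.34, 0.14 and 0.16, although the stromal and unconditioned ranges overlapped. Over the 9 samples the profiles of the 7 genes had Pearson correlations of 0.70 to 0.98 with each other, in 21 pairs, and of -0.26 to -0.05 with H2-Ob. These describe likeness across samples that share media and mice. The authors' clustering put the 7 in cluster 2, which holds 55.8% of the table, and H2-Ob in cluster 3, which holds 7.82%; clusters 1 and 4, with 31.8% and 4.57%, hold none of them.

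In adipocyte medium the summed markers of B cells and of macrophages were lower along with these genes, while dendritic cell markers went both ways. In bulk samples, fewer cells of a type and less RNA per cell cannot be told apart. Markers not tested here and below were absent from the sample table, which holds only genes listed as changed. The marker counts and sums therefore cover markers selected for a change. Of 24 B cell markers 8 were tested, and all 8 fell in adipocyte against unconditioned medium (6 after rescaling). The marker counts here and below stand against 63.4% of all tested genes lower in that comparison, 36.5% after rescaling, and 33.8% and 37.5% higher. Their summed level was 574 to 635 normalized counts in adipocyte, 1768 to 3219 in stromal and 2329 to 3102 in unconditioned medium, with none at 0 in any sample. Cd79b, a signalling chain of the B cell receptor, had a log2 fold change of -2.49 in adipocyte against unconditioned medium. Cd79a, the partner of Cd79b, had -1.68 and the B cell surface gene Ly6d -1.83. In stromal against unconditioned medium 1 of the 8 fell (after rescaling none fell and 1 rose). Of all tested genes 36.6% were lower and 21.1% higher there (19.6% and 39.3% after rescaling).

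Of 28 macrophage and monocyte markers 9 were tested, and 8 of the 9 fell in adipocyte against unconditioned medium (6 fell and 1 rose after rescaling). Their sum was 1038 to 1642 normalized counts in adipocyte, 4963 to 10574 in stromal and 5019 to 9389 in unconditioned medium, with none at 0. Csf1r, the macrophage growth factor receptor gene, had a log2 fold change of -3.88, and Lyz2, a lysozyme gene with the near copy Lyz1, -4.04. Of 17 dendritic cell markers 9 were tested, and in adipocyte against unconditioned medium 7 fell and 2 rose (6 and 2 after rescaling). Flt3, a growth factor receptor gene of dendritic cells, had -2.78, Cd209a, a lectin gene, -3.03, and the cystatin gene Cst3 -1.12. The 2 that rose were Irf8, a transcription factor gene of dendritic cells and other lineages that is also on the interferon gamma list (1.00), and Xcr1, a chemokine receptor gene of cross-presenting dendritic cells (1.54). The sum of the 9 was 4082 to 4814 in adipocyte, 7133 to 8252 in stromal and 5559 to 5973 in unconditioned medium, and Clec9a, a marker of cross-presenting dendritic cells, was at 0 in 1 adipocyte and 1 stromal sample. Without Irf8 and Xcr1, chosen for leaving out after seeing the data, the sum was 1710 to 2038 in adipocyte, 4187 to 4282 in stromal and 4292 to 4739 in unconditioned medium. In stromal against unconditioned medium 36.6% of all tested genes were lower and 21.1% higher (19.6% and 39.3% after rescaling). Of the 9 macrophage and monocyte markers 3 were lower there and 1, the monocyte marker Cd14, was higher, by 1.99 (1 lower and 2 higher after rescaling). Of the 9 dendritic cell markers 2 were lower there, Flt3 (-0.98) and Cd209a (-1.44). The 2 that were higher were Irf8, by 1.36, and Xcr1, by 1.31 (1 lower and 3 higher after rescaling). The part of these cells in the class II values was not tested.

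The T cell markers of the sample table were lower in adipocyte medium as well. Of 20 on the list 5 were tested, and all 5 fell against unconditioned medium (4 after rescaling), with a summed level of 42462 to 44070 normalized counts in adipocyte, 88751 to 91890 in stromal and 103410 to 115370 in unconditioned medium. The CD3 chain gene Cd3e had 15628 ± 715 in adipocyte, 23434 ± 984 in stromal and 35658 ± 1434 in unconditioned medium, against 182 ± 46.2, 937 ± 137 and 1005 ± 26.7 for Cd79b in the same order of media (SD, n = 3 each). Within a sample, Cd74 per summed B cell marker had a mean log2 ratio of 2.28 ± 0.29 in adipocyte, 1.66 ± 0.24 in stromal and 1.202 ± 0.14 in unconditioned medium, with no overlap between any pair of media. Relative to the 8 tested B cell markers, all of which fell in adipocyte medium, Cd74 was thus higher there. Relative to the 9 dendritic cell markers it was lower, at -0.59 ± 0.17 in adipocyte, 0.08 ± 0.18 in stromal and 0.16 ± 0.24 in unconditioned medium. That direction rests on Irf8 and Xcr1: without them the ratio was 0.70 ± 0.25 in adipocyte, 0.90 ± 0.29 in stromal and 0.51 ± 0.26 in unconditioned medium, and the 3 media overlapped. H2-Ab1 per B cell marker overlapped between all media, at -0.18 ± 0.63 in adipocyte, -0.34 ± 0.37 in stromal and -0.54 ± 0.20 in unconditioned medium. The ratio of Ciita to the same markers overlapped as well, with a mean difference of -0.49 between adipocyte and unconditioned medium.

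**Figure D5:**
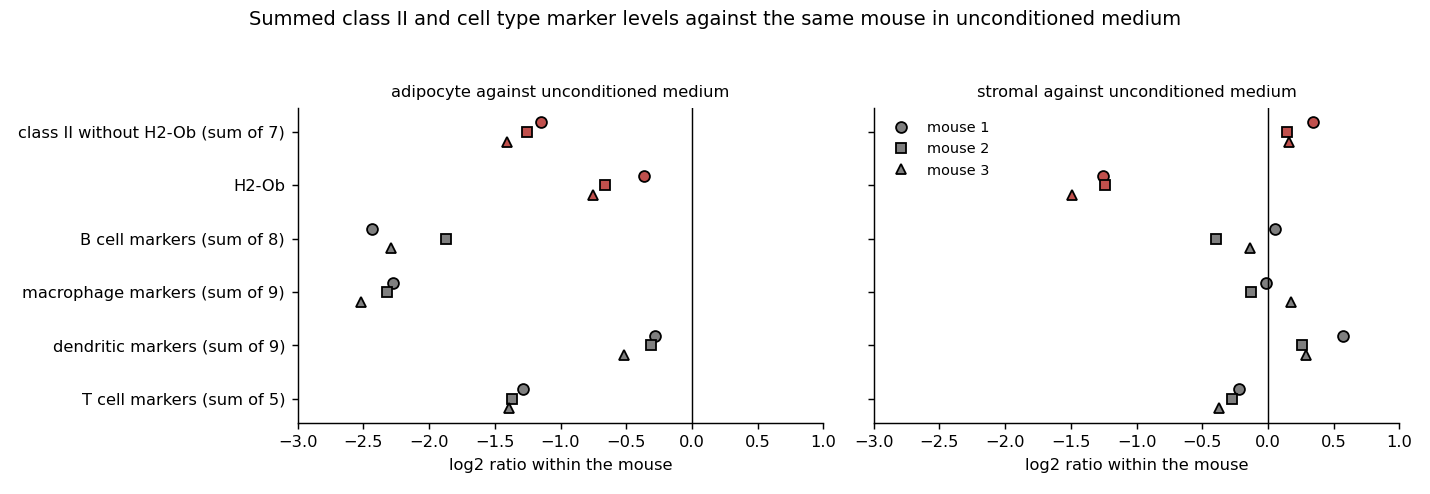
Log2 ratio, within each mouse, of summed normalized counts in adipocyte (left) and stromal (right) against unconditioned medium for 7 class II genes without H2-Ob, for H2-Ob and for 4 sets of cell type markers. B cell and macrophage markers lie between -2.52 and -1.87 in adipocyte medium, below the class II sum at -1.41 to -1.15, while T cell markers lie within its range (-1.39 to -1.28) and dendritic cell markers above it (-0.52 to -0.28); on rescaling the fold change of H2-Ob in adipocyte medium turns to 0.33.

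Regulators of class II, of its transcription or of its surface display, were lower in adipocyte medium too. Of 17 on that list 5 were tested, Ciita included, and all 5 fell against unconditioned medium, before and after rescaling (63.4% and 36.5% of all genes did). Rfx5, a subunit of the X box complex, had 377 ± 37.3 normalized counts in adipocyte, 728 ± 89.6 in stromal and 879 ± 29.2 in unconditioned medium, and limma gave -1.22 on the log2 scale for adipocyte against unconditioned medium (SE 0.12, adjusted p = 8.35e-07). Spi1, a transcription factor gene of myeloid and B cells that is also on the macrophage list, had -1.53 (adjusted p = 4.67e-05), and Pou2f2, which encodes OCT2, -1.44 (adjusted p = 3.60e-07). Marchf1, the ubiquitin ligase gene that limits class II at the surface, had 1.85 ± 1.80 normalized counts in adipocyte, 30.5 ± 4.83 in stromal and 56.8 ± 18.3 in unconditioned medium. In stromal against unconditioned medium 1 of the 5, Pou2f2, fell, and none rose (after rescaling none fell and 1 rose). Of all tested genes 36.6% were lower and 21.1% higher there (19.6% and 39.3% after rescaling).

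The interferon gamma axis, which induces Ciita in many cell types, did not run parallel to the class II genes in the comparisons with unconditioned medium. Of 20 genes on that list 17 were tested, and 16 rose in stromal against unconditioned medium with a median log2 fold change of 2.21, against 21.1% of all genes higher there (16 also after rescaling, against 39.3%). Irf1, a transcription factor gene whose product acts on a Ciita promoter, had 41460 ± 3555 normalized counts in stromal and 17092 ± 613 in unconditioned medium (log2 fold change 1.28, limma adjusted p = 6.24e-06). Gbp2, a guanylate-binding protein gene, stood at 3.36, and Socs1, which restrains the receptor, at 1.97, while Ifngr2, for a chain of the receptor, stood at -0.16 (adjusted p = 0.221). Ciita had a value of -0.06 in that comparison and Cd74 0.30, both short of the threshold. In adipocyte against unconditioned medium 9 of the 17 rose and none fell (17 rose after rescaling), against 33.8% of all genes higher (37.5% after rescaling). Irf1 stood there at 1.47 and Ifng, for interferon gamma itself, at 3.95, while Ciita was at -2.61. In adipocyte against stromal medium 14 of the 17 fell and 2 rose, against 57.2% and 33.8% of all genes. After rescaling 10 fell and 3 rose, against 38.0% and 40.8%. Most class II genes, 7 of the 8, also fell there. A role of interferon gamma was not tested.

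The genes most like the mean profile of the 8 over the 9 samples, by Pearson correlation of log2 values, were Rab27a (0.995), Cyb5r3 (0.989), Pex19 (0.989), Chpf2 (0.988) and Taf12 (0.987). With H2-Ob left out of the mean they were Tigd5 (0.989), Chpf2 (0.987), Slc25a1 (0.987), Rab27a (0.986) and Cyb5r3 (0.984). Rab27a, a GTPase gene of secretory granule docking, averaged 878 normalized counts in adipocyte, 1876 in stromal and 1984 in unconditioned medium. The genes most like H2-Ob were Npepl1 (0.995), Dennd1c (0.994), Elovl7 (0.993), B3gntl1 (0.988) and Itgae (0.985), the last encoding the alpha E integrin chain of T cells. Itgae averaged 2000.0 in adipocyte, 1282 in stromal and 3502 in unconditioned medium, the same order of media as H2-Ob. The genes most like Cd74 were led by Zcchc18 (0.991) and Pcsk1 (0.983), and those most like Ciita by Tmem101 (0.993) and Tmem216 (0.990). The 8 genes themselves were left out of this search. H2-Ab1 and H2-Eb1 had a correlation of 0.979 with each other, above the best that the search found for either (0.969 and 0.927). Cd74 and H2-Aa had one of 0.974, above the best found for H2-Aa (0.970) but below that found for Cd74 (0.991). For Ciita, H2-DMb1 and H2-DMb2 the best found (0.993, 0.994 and 0.989) was above every correlation with another member (at most 0.896, 0.967 and 0.967). High correlations over these samples are therefore not particular to the class II genes.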

How the data were processed

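The 9 libraries were made with SMART-seq v4 and Nextera XT kits, per the labels' protocols; kits of this kind do not mark strand. Among tools, featureCounts, DESeq2, Trimmomatic and FastQC appear in the submitters' processing notes, which also list the genome builds hg38, GRCh38 and GRCm39 without saying what each was for. For the aligner, gene annotation and strand setting, nothing is given in the sources used here. The deposited signal per gene is a read count divided by 1 size factor per sample, and multiplying back gave whole reads for 100% of values (tolerance 0.001). Per the file headers, the authors' deposited tables hold a mean signal, a log2 fold change, its standard error and Wald statistic (scores), and p-values, raw and adjusted.

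The limma-trend test (limma 3.58.1 in R 4.3.3) was run on log2(value + 1) for genes with a mean of at least 1, with all 9 samples in 1 fit, the group as factor, two-sided p-values and Benjamini-Hochberg adjustment over all 2868 genes at 0.05. This scale understates changes of low genes. A count model had been planned for raw counts; edgeR 4.0.16 and DESeq2 1.42.0 on the recovered reads were alternatives, with pseudocounts of 0.5 and 10, other filters, rescaling, the mouse as block, the 2 groups alone, treat at 1.5-fold and each sample left out. The labels give the mouse of each sample, so the numbers pair samples of the same animal; deviations from group means correlated at -0.12 to 0.26 within a mouse and -0.20 to 0.14 between mice. The script was tested on simulated data. The members and lists were chosen with earlier results of these data known. Named genes were drawn from the members, the list genes with the 4 smallest adjusted p in adipocyte against unconditioned medium or a mean over 1000, and the 5 genes most like each profile; Clec9a, Xcr1 and Cd14 were named after their values were seen, and some genes of the lists are not reported here. Replicate cultures within a mouse and medium are not described.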

Additional observations from a re-analysis of the deposited data

How the results depend on the processing

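In adipocyte against unconditioned medium the number of class II genes past the threshold, and the direction of H2-Ob, depend on how the libraries are scaled. With a median of ratios over the listed genes, 4 class II genes were lower and 1 higher. DESeq2 with its own size factors gave the same counts, 4 and 1. Those size factors are also a median of ratios over the listed genes, so DESeq2 does not add an independent scaling. Under these settings H2-Ob turned to 0.33 and 0.33. With TMM, edgeR left 7 class II genes lower and 0 higher, and put H2-Ob at -0.15 (adjusted p = 0.137). The other class II genes kept a negative log2 fold change under all of these settings. The cause was not tested. The log2 change of the summed level after that rescaling was -0.11 for adipocyte and 0.28 for stromal medium, each against unconditioned medium, and -0.39 for adipocyte against stromal medium, where the authors' scale gave -1.04, -0.07 and -0.96. Leaving H2-Ob out of the sum gave -1.26, 0.23 and -1.49. Leaving Cd74 out gave -0.46 for stromal against unconditioned and -0.52 for adipocyte against stromal medium.

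In stromal against unconditioned medium the count of higher class II genes, 0 in the limma fit (and 0 of the 8 at an unadjusted p under 0.05), was 2 after rescaling, 2 with DESeq2, 1 with edgeR and TMM and 1 with the mouse as replicate block, and 0 to 1 when single samples were left out. The gene that passed was Cd74, joined by H2-DMb1 under rescaling and DESeq2. The block changed no other call of the 8 genes. Ciita turned to 0.30, 0.11 and 0.33 there after rescaling, with edgeR and TMM and with DESeq2, all short of the threshold. With samples left out in turn, values short of the threshold crossed 0. H2-Aa ran from -0.066 to 0.25, H2-Ab1 from -0.12 to 0.16, H2-Eb1 from -0.14 to 0.15 and Ciita from -0.19 to 0.19. Testing against a change of 1.5-fold left 535 genes in this comparison and 1693 in adipocyte against stromal medium, against 1655 and 2609, and 0 class II genes higher in the second. In adipocyte against unconditioned medium the 8 genes stayed past the threshold with each sample left out, and the ratio of H2-Ob to Cd74 kept its sign in all 3 comparisons (0.36 to 0.63, -1.80 to -1.43 and 1.95 to 2.33; chosen after seeing the data). The ratio of Cd74 to dendritic cell markers was -0.75 in adipocyte and -0.08 in stromal against unconditioned medium; without Irf8 it was -0.05 and 0.32, and without Irf8 and Xcr1 0.19 and 0.39 (also chosen after seeing the data). Depth limits Ciita and the H2-DM genes in adipocyte medium most, at 10 to 47 reads per sample.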

Other observations

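Genes on other lists linked to antigen presentation did not all share the direction of the class II chains. Of 10 genes for surface molecules of antigen-presenting cells, costimulatory or inhibitory, 4 were tested. All 4 rose in adipocyte against unconditioned medium, before and after rescaling (33.8% and 37.5% of all genes did). Bulk samples do not show which cells expressed them. Cd83, which stabilises class II at the surface of dendritic cells, had 11458 ± 1606 normalized counts in adipocyte, 4574 ± 590 in stromal and 5796 ± 46.8 in unconditioned medium (SD, n = 3 each; log2 fold change 0.97, limma adjusted p = 2.64e-06). Pdcd1lg2, for PD-L2, had a log2 fold change of 1.89 and Cd274, for PD-L1, of 2.05, with Tnfsf4, for OX40 ligand, at 1.26, in adipocyte against unconditioned medium. Cd274 also rose in stromal medium, by 1.91, whereas Pdcd1lg2 stood at -0.22 there (adjusted p = 0.326).

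The cathepsins that were tested went opposite ways. Ctsl, a protease that degrades the invariant chain in thymic epithelium, had 4949 ± 501 normalized counts in adipocyte, 3589 ± 427 in stromal and 1746 ± 74.8 in unconditioned medium. Ctsh, an aminopeptidase, had 62.8 ± 12.4 in adipocyte, 243 ± 16.4 in stromal and 318 ± 27.1 in unconditioned medium. The single class I gene tested of 26 on that list, H2-Q4, rose by 0.88 in adipocyte and by 0.48 in stromal against unconditioned medium. Cxcr4, a chemokine receptor that can pair with the CD74 protein, rose by 1.37 in adipocyte against unconditioned medium, while Cd74 was at -1.12. Cxcr2, another such receptor gene and a marker of neutrophils, had a log2 fold change of -2.41 in adipocyte and 0.59 in stromal against unconditioned medium, the second short of the threshold (limma adjusted p = 0.270).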
